A study of Homo sapiens with 12 samples.

Results

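The anaphase-promoting complex or cyclosome (APC/C) is the ubiquitin ligase that ends mitosis, and 10 of its genes were followed here by name: the activators CDC20 and FZR1, the ubiquitin-conjugating enzymes UBE2C and UBE2S, the inhibitor FBXO5, the core subunits CDC23, CDC27 and ANAPC11, and the securin PTTG1 with the separase ESPL1 that it holds. They are 10 of the 57773 gene identifiers in the deposited table and 10 of the 12892 genes that passed the filter on low values, so every listed gene was tested. RPE1 cells, an immortalised human retinal pigment epithelial line, had been transfected for 24 h with siRNA against Anillin, a scaffold protein of the contractile ring whose loss makes cytokinesis fail, or with a non-targeting siRNA labelled Random. Before sorting by DNA content, living cells took up the DNA dye Hoechst 33342 (2 µg/mL, 37 °C, 60 min). The 4 groups of 3 RNA-seq libraries were Anillin siRNA sorted at 4N (Anillin 4N), Anillin siRNA sorted at 2N (Anillin 2N), non-targeting siRNA sorted at 4N (control 4N) and non-targeting siRNA sorted at 2N (control 2N). All 12 libraries came from this 1 line, and every culture went through lipofection and sorting. The design text speaks of 3 biological replicates and does not say if the cultures were separate, so the spread behind each p-value may be partly technical. A 2N gate holds mainly G1 cells, a control 4N gate holds G2 and mitotic cells, and after failed cytokinesis a 4N gate can include cells that re-entered G1 without dividing.

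The APC/C is a large scaffold of subunits with a catalytic core, and it marks cell cycle proteins for destruction by building ubiquitin chains on them. CDC20 activates it at the metaphase to anaphase transition, when it removes securin and B-type cyclins. FZR1, also called CDH1, takes over at mitotic exit and keeps the complex active through G1, where it removes CDC20 and many mitotic proteins. UBE2C starts the chains and UBE2S lengthens them, FBXO5 (also called EMI1) keeps the complex off in S and G2 phase, and loss of securin frees separase to cut cohesin and part the sister chromatids.

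In the 4N gate, transcripts of all 10 genes were lower after Anillin siRNA than in the control, against 31.5% of all genes tested, and the size differed widely among them. ESPL1 was tested only because its control 4N libraries met the filter, so its contrasts with that group are not independent of the filter. UBE2C, CDC20 and ESPL1 stood at 11.1%, 16.1% and 17.8% of their control 4N means and CDC27 at 51.9%, whereas CDC23 and ANAPC11 stood at 87.6% and 82.3% and lost their calls with quantile scaling. In the 2N gate, 7 of the 10 were lower after Anillin siRNA, against 17.1% of all genes tested, and FZR1, CDC23 and ANAPC11 did not pass the test. Set against control 2N cells, the Anillin 4N cells had lower FBXO5 and CDC27 and the other 8 genes did not pass, a share near the 15.8% lower among all genes tested. The rise between the 2N and 4N gates was smaller with Anillin siRNA than with control siRNA for 9 of the 10, and the same difference was below 0 and past the threshold for 10.7% of all genes tested.

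Several of these genes are known targets of the cell cycle repressor and activator complexes that bind a cell cycle homology region (CHR) and nearby CCAAT boxes, so the RefSeq promoters (GRCh38.p14, 250 bases before to 50 bases after a start) were searched on both strands. The table held 15 promoters for 9 of the genes and none for UBE2C, which was therefore not searched. UBE2C stood at 11.1% of its control 4N mean in Anillin 4N, the lowest of the genes followed here. The motif results below leave it out. The motifs were TTTGAA and TTTAAA as CHR types, CCAAT, and the E2F-type forms TTTGGCGC, TTTCCCGC, TTTCGCGC and TTTGCCGC. CCAAT boxes on opposite strands can share bases, as they do in PTTG1 and FBXO5, and each was counted. The 200 bases before the start are shown for the 4 genes with a CHR type in the 100 bases before a start, which stood at 16.1% to 35.5% of their control 4N means in Anillin 4N, and for CDC23, which varied little. Capitals mark every motif found, read on the strand of the gene, so that a CCAAT box on the other strand appears as ATTGG and TTTGAA on the other strand as TTCAAA.
CDC20 (chr1:43358781-43358980, plus strand): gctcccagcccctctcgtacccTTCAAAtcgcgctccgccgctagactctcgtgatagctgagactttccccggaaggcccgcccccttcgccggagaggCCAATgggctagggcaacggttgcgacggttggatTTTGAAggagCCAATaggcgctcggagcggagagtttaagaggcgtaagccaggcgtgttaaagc
PTTG1, the upstream of its pair of starts (chr5:160421655-160421854, plus strand): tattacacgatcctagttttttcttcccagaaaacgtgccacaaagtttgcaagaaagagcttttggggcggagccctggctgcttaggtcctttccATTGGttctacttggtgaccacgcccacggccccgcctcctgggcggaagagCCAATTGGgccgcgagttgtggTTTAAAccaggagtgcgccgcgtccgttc
FBXO5, the downstream of its pair of starts (chr6:152983042-152983241, minus strand): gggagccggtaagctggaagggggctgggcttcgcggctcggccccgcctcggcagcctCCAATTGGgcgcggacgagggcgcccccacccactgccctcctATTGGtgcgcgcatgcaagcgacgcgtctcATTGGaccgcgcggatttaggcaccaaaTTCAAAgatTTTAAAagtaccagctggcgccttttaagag
ESPL1 (chr12:53268099-53268298, plus strand): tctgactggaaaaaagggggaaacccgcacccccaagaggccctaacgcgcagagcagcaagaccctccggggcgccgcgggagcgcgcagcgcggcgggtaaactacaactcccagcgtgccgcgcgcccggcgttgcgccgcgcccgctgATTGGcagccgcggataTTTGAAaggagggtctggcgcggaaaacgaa
CDC23 (chr5:138213324-138213523, minus strand): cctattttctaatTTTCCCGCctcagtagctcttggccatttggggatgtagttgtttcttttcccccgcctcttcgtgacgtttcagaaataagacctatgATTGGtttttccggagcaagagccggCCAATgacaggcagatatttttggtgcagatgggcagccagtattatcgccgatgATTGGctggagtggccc

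In these windows the nearest CHR type begins 65 bases before the start in CDC20, 29 in PTTG1 and 31 in ESPL1, and at 40 and 31 bases before the start in FBXO5. A CHR type in the 100 bases before a start was present in 5 of the 15 promoters, those of 4 genes, and in 8.24% of all 35116 promoters of the table, a window chosen after the positions had been seen. Over the whole 300-base promoters, a CHR type was present in 7 of the 15, those of CDC20, FZR1, FBXO5, PTTG1, ESPL1 and, after its start, CDC27, and in 24.0% of all promoters, with TTTGAA in 15.2% and TTTAAA in 12.2%. A CCAAT box was present in 11 of the 15, from 8 of the 9 genes, all but FZR1, and in 34.6% of all promoters. An E2F-type form was present only in CDC23 among the 9, as TTTCCCGC at 187 bases before the start, and any of the 4 forms was in 3.31% of all promoters. Promoters of 1 gene overlap where its starts lie close. UBE2S, which stood at 23.8% of its control 4N mean in Anillin 4N, had no CHR type in its window. A match of letters is a description only.

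**Figure D1:**
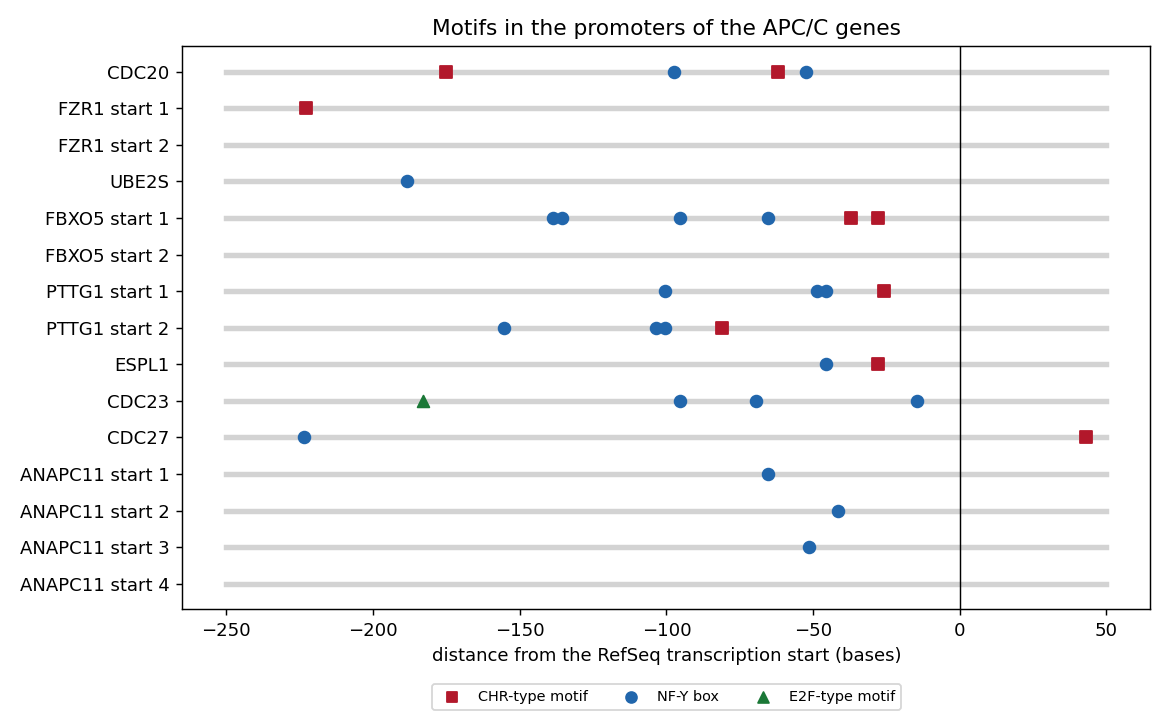
Positions of motif matches in the RefSeq promoters of 9 APC/C genes. Each grey line is 1 promoter from 250 bases before to 50 bases after a transcription start (x axis, bases); red squares are CHR types, blue circles CCAAT boxes (NF-Y boxes) and the green triangle the E2F-type match. Ahead of a start, the nearest CHR types lie in CDC20, FBXO5, PTTG1 and ESPL1, and the second FZR1 and FBXO5 starts and the fourth ANAPC11 start hold no match.

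Reads in genes numbered 17412742 to 61760451 per library, as recovered from the deposited RPKM, which are reads scaled by the span of the gene, introns included, and by library size. An annotated span was matched for 29237 of the 38571 genes above 0. The fewest reads for any of the 10 genes in 1 library were 118, for ESPL1 in Anillin 2N replicate 3. The targeted gene ANLN measured 0.0989, 0.0855 and 0.0700 RPKM in Anillin 4N and 0.0850, 0.0582 and 0.0395 RPKM in Anillin 2N, against 8.42, 7.45 and 7.98 RPKM in control 4N and 1.88, 1.25 and 1.66 RPKM in control 2N. Every Anillin library lay below every control library. The epithelial keratin KRT18 averaged 92.2 to 128.9 RPKM per group. The retinal pigment epithelium genes RPE65, BEST1, RLBP1, TYRP1 and PMEL stayed at or under 0.136 RPKM in every library, and MITF at or under 0.148. These values are per base of gene span and were not rescaled to exons, so a long gene reads low. Of the 8 genes in this list, which includes KRT8 and KRT18, 7 had enough reads to be tested on recovered reads. Low RPKM here does not show that a marker is absent. Of 5 blood markers HBB and CD3E were at 0 in every library, and CD68, which is not restricted to blood, averaged 13.1 to 16.9 RPKM per group. Both genes moved with the siRNA: KRT18 fell by 0.26 on the log2 scale in the 4N gate and by 0.30 in the 2N gate (adjusted p = 0.00414 and 0.00464), and CD68 by 0.27 and 0.34 (adjusted p = 0.000998 and 0.000851), the first CD68 call being lost with quantile scaling. Their part in the results was not tested. The summed level of 6 markers of other epithelia and muscle was 0.0453 to 0.113 RPKM per library. Control 2N replicate 2 was the lowest of its group for CDC20, FZR1, UBE2C, UBE2S, FBXO5, PTTG1, ESPL1, ANAPC11 and ANLN, and values without it are given where a direction turns on it.

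The summed level of 14 other G2 and mitosis genes moved with the APC/C genes. It was 29.5 to 33.1 RPKM in Anillin 4N, 9.25 to 10.0 in Anillin 2N, 204.3 to 227.6 in control 4N and 29.7 to 44.0 in control 2N, where replicate 2 had the 29.7. All 14 fell after Anillin siRNA in both gates, with a median log2 change of -2.32 in the 4N gate and -1.16 in the 2N gate (-1.77 on recovered reads). Among all genes tested, 31.5% were lower in the 4N gate and 17.1% in the 2N gate. The summed level of the p53 arrest genes CDKN1A, MDM2 and BTG2 ran the other way across the siRNAs, at 100.9 to 104.4 RPKM in Anillin 4N, 48.4 to 53.1 in Anillin 2N, 33.6 to 39.6 in control 4N and 31.2 to 33.9 in control 2N. All 3 rose in both gates, with medians of 1.44 and 0.65, against 20.0% and 11.4% higher among all genes tested. The MDM2 call in the 2N gate (0.20 ± 0.06, adjusted p = 0.0212) was lost without any 1 of Anillin 2N replicates 1 and 2 and control 2N replicates 1 and 3, and when the fit held only the 2 groups compared. The part of either in the results below was not tested. In these bulk samples, fewer cells in G2 or mitosis and less RNA of a gene per cell cannot be told apart.

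Of the activators, CDC20 (ENSG00000117399, chromosome 1, 43358955 to 43363203 on the plus strand of GRCh38) had 10.8, 10.5 and 11.0 RPKM in Anillin 4N and 2.93, 2.66 and 2.79 RPKM in Anillin 2N. It had 71.3, 60.8 and 68.3 RPKM in control 4N and 12.2, 7.35 and 11.3 RPKM in control 2N. Every control 4N library stood far above the others, Anillin 2N was the lowest group, and Anillin 4N overlapped control 2N. CDC20 fell by 2.58 ± 0.15 on the log2(RPKM + 0.5) scale (SE, 3 libraries a group) in Anillin 4N against control 4N (limma-trend, Benjamini-Hochberg adjusted p = 6.83e-07). At 2N it fell by 1.68 ± 0.15 (adjusted p = 8.1e-05), which left 27.1% of the control 2N mean. Anillin 4N and control 2N averaged 10.7 ± 0.25 and 10.3 ± 2.60 RPKM (SD, n = 3 each), a log2 difference of 0.09 ± 0.15 (adjusted p = 0.704) that was -0.13 without control 2N replicate 2. The copy CDC20P1 averaged 0.813 RPKM in Anillin 4N, 0.138 in Anillin 2N, 4.48 in control 4N and 0.735 in control 2N. Sharing of reads between it and CDC20 was not tested.

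FZR1 (ENSG00000105325, chromosome 19, 3506273 to 3538330, plus strand), the G1 activator, had 1.13, 1.29 and 1.41 RPKM in Anillin 4N and 1.16, 1.04 and 1.10 RPKM in Anillin 2N. It had 3.38, 2.68 and 3.31 RPKM in control 4N and 1.13, 0.978 and 1.18 RPKM in control 2N. Control 4N stood apart and the other 3 groups overlapped one another. FZR1 fell by 1.02 ± 0.08 on the log2 scale in Anillin 4N against control 4N (adjusted p = 6.97e-06), to 40.9% of the control mean. Its log2 difference at 2N was 0.0047 ± 0.08 (adjusted p = 0.975), or -0.050 without control 2N replicate 2, and Anillin 2N averaged 100.3% of control 2N. Against control 2N the Anillin 4N difference was 0.16 ± 0.08 (adjusted p = 0.198).

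The balance of the activators, taken within a library as reads per merged exon base, is given as a description. Here and below this measure counts every read as exonic, which was not tested, and its factor differs by gene. FZR1 spans 32058 bases with 5802 in merged exons, and CDC20 spans 4249 with 2038. The size of a ratio is uncertain to that extent. CDC20 exceeded FZR1 by 3.18-fold in Anillin 4N, 8.09-fold in control 4N and 3.48-fold in control 2N by the mean log2 ratio, and the ratio was 0.959 in Anillin 2N. The log2 ratios were 1.84, 1.62 and 1.55 in Anillin 4N, and they were -0.0642, -0.0598 and -0.0593 in Anillin 2N. They were 2.99, 3.10 and 2.96 in control 4N and 2.03, 1.503 and 1.86 in control 2N. Anillin 4N was 1.35 below control 4N and Anillin 2N was 1.86 below control 2N, each with no overlap of libraries, while Anillin 4N and control 2N overlapped. No test was run on these ratios; an exact permutation test of 3 libraries against 3 cannot pass 0.05.

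**Figure D2:**
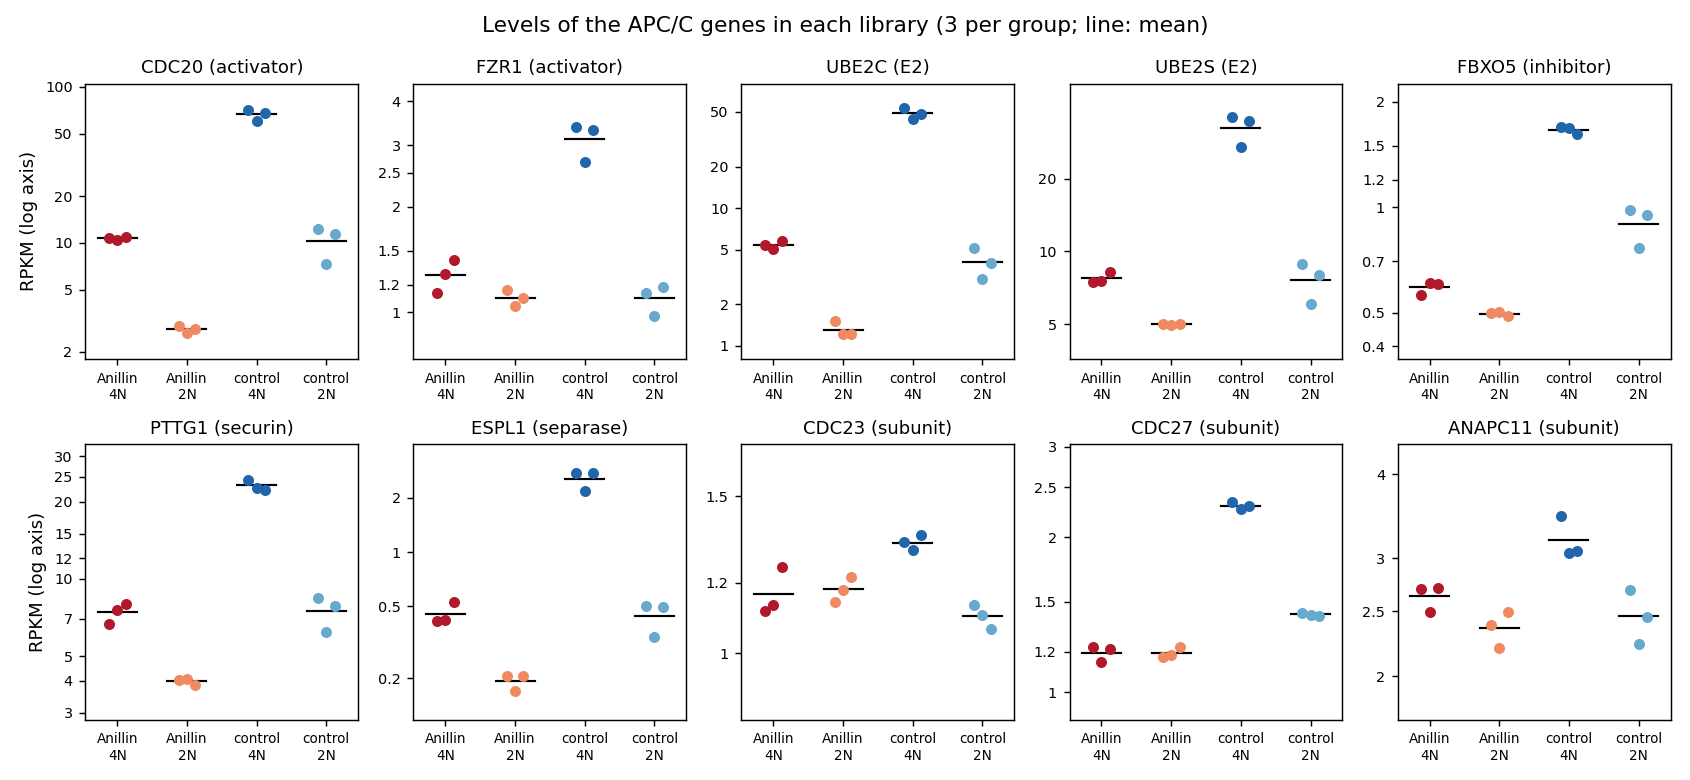
Level of each of the 10 APC/C genes in every library, in RPKM on a log axis, by group from left to right (Anillin 4N, Anillin 2N, control 4N, control 2N). Points are libraries and lines group means (n = 3). Control 4N lies above the other groups for every gene, by the widest margin for UBE2C and CDC20 and the narrowest for CDC23.

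The chain-starting enzyme UBE2C (ENSG00000175063, chromosome 20, 45812576 to 45816957, plus strand) had the largest deficit of the 10 in the 4N gate. It had 5.41, 5.06 and 5.79 RPKM in Anillin 4N and 1.51, 1.21 and 1.22 RPKM in Anillin 2N. It had 53.1, 44.7 and 48.6 RPKM in control 4N and 5.11, 3.08 and 3.98 RPKM in control 2N. Anillin 4N overlapped control 2N by a single control library at 5.11 RPKM, and all other groups were separate. UBE2C fell by 3.06 ± 0.14 on the log2 scale in the 4N gate (adjusted p = 1.82e-07) and by 1.31 ± 0.14 in the 2N gate (adjusted p = 0.000222), to 32.3% of control 2N. Anillin 4N averaged 133.6% of control 2N, a log2 difference of 0.40 ± 0.14 (adjusted p = 0.0613). That difference passed with other scalings (adjusted p = 0.038 with quantile scaling and 0.0403 with median-of-ratios scaling), on recovered reads (0.0166) and without control 2N replicate 1 (0.00966), and was 0.24 without control 2N replicate 2.

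UBE2S (ENSG00000108106, chromosome 19, 55399745 to 55407777, minus strand), which lengthens the chains, had 7.44, 7.53 and 8.21 RPKM in Anillin 4N and 5.00, 4.95 and 5.01 RPKM in Anillin 2N. It had 35.8, 27.1 and 34.4 RPKM in control 4N and 8.89, 6.07 and 8.001 RPKM in control 2N. Its control 4N libraries were the highest, Anillin 2N lay below every other library, and all 3 Anillin 4N libraries lay inside the range of control 2N. UBE2S fell by 1.99 ± 0.13 on the log2 scale in the 4N gate (adjusted p = 1.61e-06) and by 0.55 ± 0.13 in the 2N gate (adjusted p = 0.0117), to 65.2% of control 2N. Anillin 4N against control 2N gave 0.03 ± 0.13 (adjusted p = 0.895), or -0.12 without control 2N replicate 2. Its processed copy UBE2SP1 on chromosome 17 averaged 17.1 RPKM in Anillin 4N, 11.2 in Anillin 2N, 80.2 in control 4N and 18.6 in control 2N. The copy UBE2SP2 on the same chromosome averaged 18.4 RPKM in Anillin 4N, 12.0 in Anillin 2N, 81.4 in control 4N and 18.1 in control 2N. Both were highest in control 4N and lowest in Anillin 2N, as UBE2S was. Sharing of reads among the copies was not tested, and the level of UBE2S is uncertain to that extent. UBE2S also overlaps RPL28 on the opposite strand over 3506 bases, though not in exons, and strand use in counting was not stated in those sources that were used.

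Per merged exon base, UBE2C and UBE2S were about level in Anillin 4N, with a ratio of 1.03. UBE2C was the lower of the pair in Anillin 2N at 0.382 of UBE2S, the higher in control 4N at 2.21, and the lower in control 2N at 0.769. Against the control of its own gate, the log2 ratio was 1.11 lower in Anillin 4N and 1.01 lower in Anillin 2N, each with no overlap of libraries. Anillin 4N lay 0.42 above control 2N, also with no overlap.

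FBXO5 (ENSG00000112029, chromosome 6, 152970519 to 152983579, minus strand), the interphase inhibitor of the APC/C, had 0.560, 0.606 and 0.605 RPKM in Anillin 4N and 0.497, 0.501 and 0.490 RPKM in Anillin 2N. It had 1.70, 1.68 and 1.62 RPKM in control 4N and 0.981, 0.766 and 0.948 RPKM in control 2N. No 2 groups overlapped, and both Anillin groups lay below both control groups. FBXO5 fell by 0.99 ± 0.05 on the log2(RPKM + 0.5) scale in the 4N gate (adjusted p = 4.14e-07) and by 0.49 ± 0.05 in the 2N gate (adjusted p = 0.00022). Its levels lie near the pseudocount, and on recovered reads (limma-voom) the same changes were -1.48 and -0.87. FBXO5 in Anillin 4N was at 65.7% of the control 2N mean, lower by -0.36 ± 0.05 (adjusted p = 0.000942) or -0.62 on recovered reads. Only 1 of the 3 Anillin 2N libraries reached the minimum of 0.5 RPKM. FBXO5 shares 157 exonic bases with an antisense transcript, AL080276.2.

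Securin, PTTG1 (ENSG00000164611, chromosome 5, 160421822 to 160428744, plus strand), had 6.64, 7.59 and 7.95 RPKM in Anillin 4N and 4.04, 4.08 and 3.87 RPKM in Anillin 2N. It had 24.4, 22.7 and 22.3 RPKM in control 4N and 8.40, 6.22 and 7.82 RPKM in control 2N. Anillin 4N overlapped control 2N, with means of 7.40 ± 0.68 and 7.48 ± 1.13 RPKM (SD, n = 3 each), and Anillin 2N lay below every other library. PTTG1 fell by 1.58 ± 0.10 on the log2 scale in the 4N gate (adjusted p = 1.09e-06) and by 0.82 ± 0.10 in the 2N gate (adjusted p = 0.000363), to 53.4% of control 2N. Anillin 4N against control 2N gave -0.0087 ± 0.10 (adjusted p = 0.957), -0.13 without control 2N replicate 2 and 0.075 without control 2N replicate 1. The related gene PTTG2 averaged at most 0.0895 RPKM in a group.

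Separase, ESPL1 (ENSG00000135476, chromosome 12, 53268299 to 53293643, plus strand), had 0.415, 0.423 and 0.532 RPKM in Anillin 4N and 0.206, 0.169 and 0.207 RPKM in Anillin 2N. It had 2.76, 2.19 and 2.74 RPKM in control 4N and 0.49995, 0.340 and 0.495 RPKM in control 2N. Anillin 4N overlapped control 2N, Anillin 2N was lowest and control 4N highest. ESPL1 fell by 1.68 ± 0.09 on the log2(RPKM + 0.5) scale in the 4N gate (adjusted p = 4.44e-07) and by 0.44 ± 0.09 in the 2N gate (adjusted p = 0.00595). These values are shrunk by the pseudocount: on recovered reads they were -2.44 and -1.24, and the Anillin 2N mean was 43.6% of control 2N. Anillin 4N against control 2N gave 0.02 ± 0.09 (adjusted p = 0.887), or -0.062 without control 2N replicate 2. ESPL1 met the filter through 4 libraries, 3 of control 4N and 1 of Anillin 4N. Securin exceeded separase per merged exon base by 19.6-fold in Anillin 4N, 24.9-fold in Anillin 2N, 10.9-fold in control 4N and 20.4-fold in control 2N. The log2 ratio was 0.84 higher in Anillin 4N than in control 4N with no overlap, and Anillin 4N and control 2N overlapped.

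**Figure D3:**
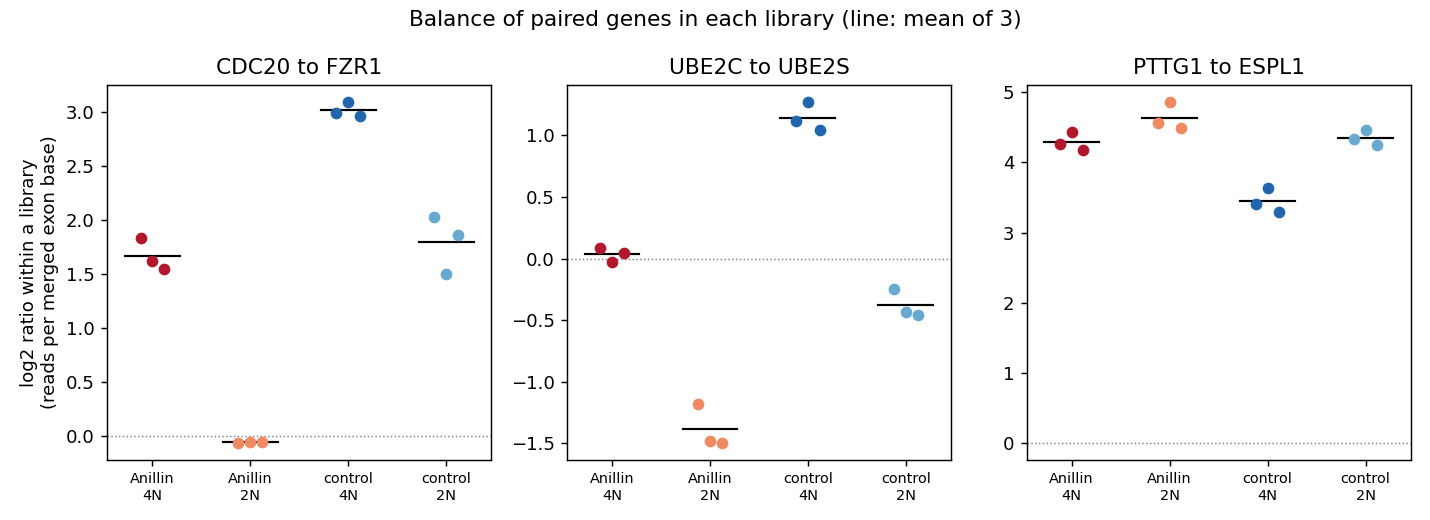
Log2 ratio of CDC20 to FZR1, UBE2C to UBE2S and PTTG1 to ESPL1 within each library, from reads per merged exon base. Points are libraries and lines are the means of 3. The CDC20 to FZR1 ratio is near 0 in Anillin 2N and highest in control 4N, and the PTTG1 to ESPL1 ratio is lowest in control 4N.

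Among the core subunits, CDC27 (ENSG00000004897, chromosome 17, 47117703 to 47189422, minus strand), which docks the activators, varied the most. It had 1.22, 1.15 and 1.21 RPKM in Anillin 4N and 1.17, 1.18 and 1.23 RPKM in Anillin 2N. It had 2.34, 2.27 and 2.30 RPKM in control 4N and 1.43, 1.42 and 1.41 RPKM in control 2N. The 2 Anillin groups overlapped each other and lay below both control groups. CDC27 fell by 0.73 ± 0.03 on the log2 scale in the 4N gate (adjusted p = 5.16e-08), to 51.9% of control 4N, and by 0.18 ± 0.03 in the 2N gate (adjusted p = 0.00103). Anillin 4N was also lower than control 2N by -0.18 ± 0.03 (adjusted p = 0.000941). Its pseudogene CDC27P1 averaged 2.35 RPKM in Anillin 4N, 2.25 in Anillin 2N, 4.25 in control 4N and 3.15 in control 2N. Sharing of reads between them was not tested.

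CDC23 (ENSG00000094880, chromosome 5, 138187648 to 138213343, minus strand), another scaffold subunit, was the steadiest of the 10. It had 1.11, 1.13 and 1.25 RPKM in Anillin 4N, 1.14, 1.18 and 1.22 RPKM in Anillin 2N, 1.33, 1.31 and 1.36 RPKM in control 4N and 1.13, 1.10 and 1.07 RPKM in control 2N. Control 4N was the highest group by a narrow margin. CDC23 fell by 0.14 ± 0.04 on the log2 scale in the 4N gate (adjusted p = 0.00918), but did not pass with quantile (adjusted p = 0.0664) or median-of-ratios scaling (adjusted p = 0.0638). At 2N the difference was 0.07 ± 0.04 (adjusted p = 0.19). CDC23 shares 68 exonic bases with KIF20A, a mitotic kinesin on the opposite strand that averaged 6.98 RPKM in Anillin 4N, 1.79 in Anillin 2N, 36.6 in control 4N and 7.71 in control 2N, and its part in the CDC23 values was not tested.

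ANAPC11 (ENSG00000141552, chromosome 17, 81890790 to 81900991, plus strand), the catalytic RING subunit, had 2.70, 2.49 and 2.71 RPKM in Anillin 4N and 2.38, 2.20 and 2.49 RPKM in Anillin 2N. It had 3.47, 3.05 and 3.08 RPKM in control 4N and 2.69, 2.23 and 2.45 RPKM in control 2N. The control 4N libraries were above all others, and the other 3 groups overlapped. ANAPC11 fell by 0.24 ± 0.07 on the log2 scale in the 4N gate (adjusted p = 0.0129), a call lost with quantile scaling (adjusted p = 0.0921) and without control 4N replicate 1 (adjusted p = 0.0528). Its difference at 2N was -0.05 ± 0.07 (adjusted p = 0.654). It overlaps ALYREF on the opposite strand over 797 bases, 62 of them exonic in both.

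**Figure D4:**
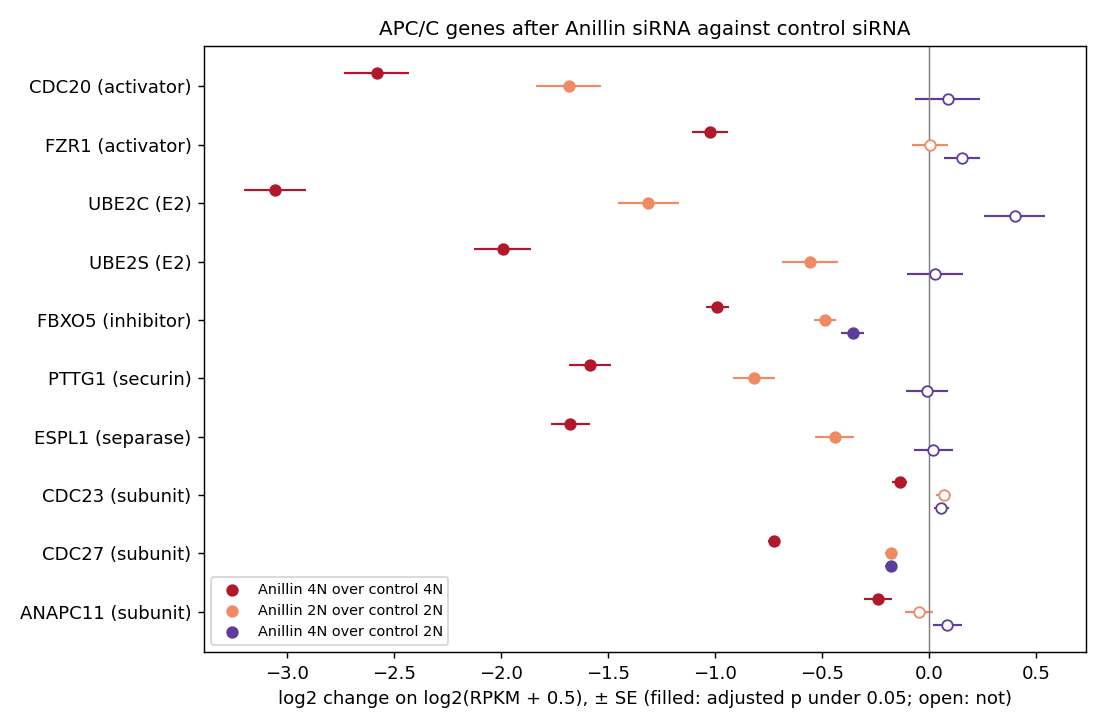
Log2 change of each gene on the log2(RPKM + 0.5) scale for Anillin 4N over control 4N (dark red), Anillin 2N over control 2N (orange) and Anillin 4N over control 2N (purple). Bars are ± SE, and filled points have an adjusted p under 0.05. The first contrast is negative for all 10 genes. The last passes only for FBXO5 and CDC27, both negative, and its largest rise, 0.40 for UBE2C, does not pass.

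Counted together, all 10 genes fell in Anillin 4N relative to control 4N and none rose, whereas 31.5% of all genes tested were lower and 20.0% higher. The median log2 change was -1.30 over the 10 and -0.045 over all genes tested. ESPL1 met the filter only with its 3 control 4N libraries, so its fall from that group is not independent of its being tested. At 2N, 7 of the 10 were lower and none higher, against 17.1% lower and 11.4% higher among all genes, with medians of -0.46 (-0.74 on recovered reads) over the 10 and -0.020 over all genes. Between Anillin 4N and control 2N, 2 of the 10 were lower and none higher, against 15.8% lower and 14.1% higher among all genes, and the medians were 0.04 and -0.003. The first and last of these contrasts share the Anillin 4N libraries, and the second and last share the control 2N libraries.

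The step between the gates, from the same libraries, was tested with each siRNA. With control siRNA, all 10 genes were higher in control 4N than in control 2N, and 23.9% of all genes tested were higher and 13.2% lower. The folds of the mean RPKM ran from 1.21 for CDC23, 1.30 for ANAPC11 and 1.63 for CDC27 to 5.76 for ESPL1, 6.48 for CDC20 and 12.0 for UBE2C. FBXO5, FZR1, PTTG1 and UBE2S lay between, at 1.85, 2.85, 3.09 and 4.24. No control 4N library of any of the 10 genes overlapped control 2N. The share of all genes without such overlap was not counted, so this separation is a description only. ESPL1 was tested only through its control 4N libraries, so its rise is not independent of the filter.

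With Anillin siRNA, 5 of the 10 stood higher at 4N than at 2N and none lower, against 2.61% higher and 0.970% lower among all genes tested. UBE2C rose by 1.71 ± 0.14 on the log2 scale (adjusted p = 0.000194), CDC20 by 1.77 ± 0.15 (adjusted p = 0.000204) and PTTG1 by 0.81 ± 0.10 (adjusted p = 0.00159). ESPL1 rose by 0.46 ± 0.09 (adjusted p = 0.0229; 1.28 on recovered reads) and UBE2S by 0.58 ± 0.13 (adjusted p = 0.0426). The ESPL1 call was lost without any 1 of 5 of the 6 Anillin libraries, all but Anillin 4N replicate 1, with adjusted p up to 0.094, and the UBE2S call without any 1 of the 6, with adjusted p from 0.093 to 0.135. FZR1, FBXO5 and ANAPC11 differed by 0.15, 0.13 and 0.13 and did not pass, and CDC23 and CDC27 differed by -0.01 and 0.0010. The Anillin 4N libraries overlapped Anillin 2N for FZR1, CDC23, CDC27 and ANAPC11.

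The difference of these steps, an interaction term, was below 0 and past the threshold for 9 of the 10, against 10.7% lower and 4.93% higher among all genes tested. ESPL1, tested only through its control 4N libraries, carries that limit here too. It was -1.75 ± 0.20 for UBE2C (adjusted p = 0.000482), -1.44 ± 0.19 for UBE2S (adjusted p = 0.000951), -1.23 ± 0.13 for ESPL1 (adjusted p = 0.000257) and -1.03 ± 0.12 for FZR1 (adjusted p = 0.000482). CDC27, whose level did not differ between the gates with Anillin siRNA beyond its spread, had -0.55 ± 0.04 (adjusted p = 2.47e-05). FBXO5 and PTTG1 had -0.50 and -0.76, and CDC20 had -0.90 ± 0.21 (adjusted p = 0.0203), lost without control 4N replicate 1 (adjusted p = 0.054). ANAPC11 did not pass, at -0.19 ± 0.09 (adjusted p = 0.208). CDC23 passed at -0.21 ± 0.05 (adjusted p = 0.0236), but 7 of the 12 libraries each ended the call when left out, with adjusted p from 0.0509 to 0.0604: Anillin 4N replicates 1 and 2, Anillin 2N replicates 2 and 3, control 4N replicates 1 and 3 and control 2N replicate 3.

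**Figure D5:**
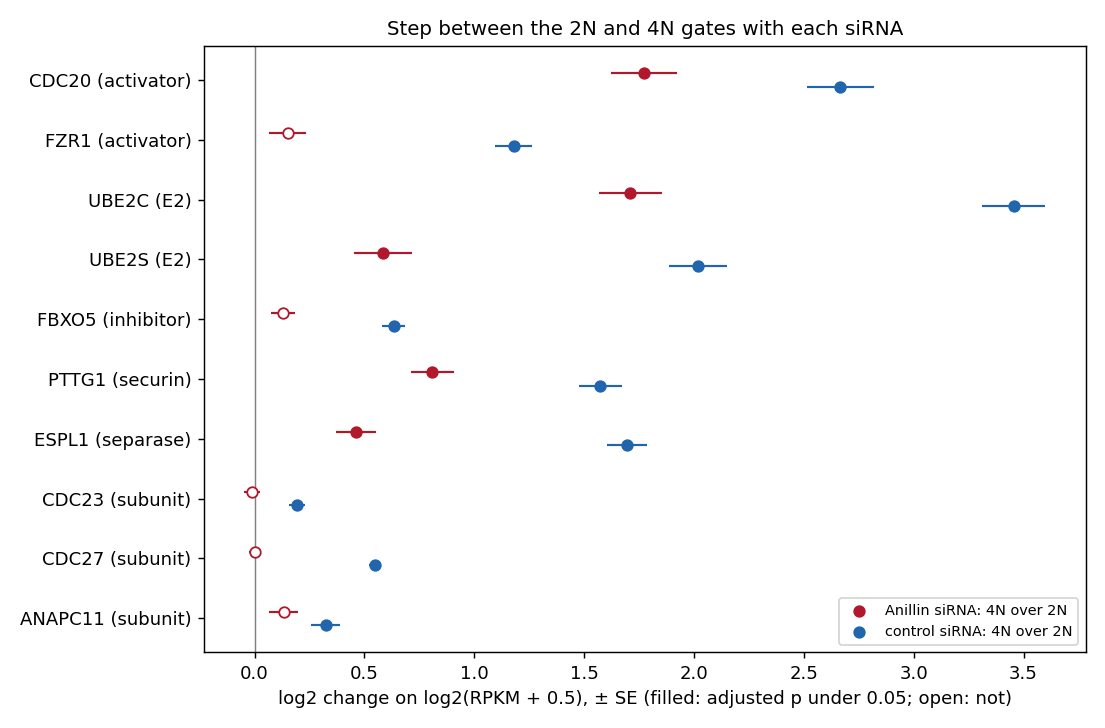
Log2 change from the 2N to the 4N gate with Anillin siRNA (red) and with control siRNA (blue), on the log2(RPKM + 0.5) scale. Bars are ± SE, and filled points have an adjusted p under 0.05. The Anillin step is smaller than the control step for each of the 10 genes, and lies near 0 for CDC23 and CDC27.

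The order of levels per merged exon base changed with the group. It counts every read as exonic, which was not tested, and CDC27 spans 71720 bases with only 6824 in merged exons. In Anillin 4N, PTTG1 (25.4 exon-based RPKM) and CDC20 (22.4) overlapped at the top, followed by UBE2C (18.5) and UBE2S (18.0), which overlapped each other, CDC27 (12.6), then FZR1, ANAPC11 and CDC23 between 7.07 and 6.49 without separation, FBXO5 (2.01) and ESPL1 (1.30). In Anillin 2N, PTTG1 (13.7) was followed by CDC27 (12.5) and UBE2S (11.6), then by CDC23, FZR1, ANAPC11 and CDC20 from 6.56 to 5.82, each overlapping the next, by UBE2C (4.47), FBXO5 (1.69) and ESPL1 (0.553). In control 4N, UBE2C (166.2) and CDC20 (139.3) stood apart at the top, above PTTG1 (79.4) and UBE2S (75.5), CDC27 (24.2), FZR1 (17.3), ANAPC11 (8.10), CDC23 (7.41) and ESPL1 (7.31), which overlapped, and FBXO5 (5.67). In control 2N the top 5, PTTG1 (25.7), CDC20 (21.5), UBE2S (17.8), CDC27 (14.9) and UBE2C (13.8), each overlapped the next. By this measure, CDC27 ranked above UBE2C and CDC20 in Anillin 2N and below both in control 4N.

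The other subunits of the complex changed by unequal amounts. Of 9 tested among 11 others, 6 fell and 1 rose in Anillin 4N against control 4N, with a median of -0.21. Among all genes tested, 31.5% were lower and 20.0% higher. ANAPC7 fell by 0.55 ± 0.05 on the log2 scale (adjusted p = 6.88e-06), CDC26 by 0.45 ± 0.06 (adjusted p = 0.000113) and ANAPC15 by 0.36 ± 0.08 (adjusted p = 0.00458), while ANAPC4 rose by 0.10 ± 0.03 (adjusted p = 0.0297). The ANAPC4 call was lost on recovered reads and without any 1 of Anillin 4N replicates 1 and 2 and control 4N replicates 1 and 3, with adjusted p up to 0.0985. In the 2N gate 2 of the 9 fell, CDC26 and ANAPC7, a share near the 17.1% lower among all genes tested, and 7 did not pass. Between the gates with Anillin siRNA none passed, by limma-trend (0 at an unadjusted p under 0.05 as well) or by limma-voom on recovered reads. With control siRNA ANAPC5, ANAPC7, ANAPC13, ANAPC15 and CDC16 rose in the 4N gate and ANAPC4 fell, against 23.9% higher and 13.2% lower among all genes tested. With quantile scaling all of these rises but that of ANAPC7 were lost, and without control 4N replicate 1 those of ANAPC5, ANAPC13 and ANAPC15 and the fall of ANAPC4.

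CDC26, a small subunit that steadies the scaffold, went with the siRNA rather than the gate. It averaged 0.588 ± 0.022 RPKM in the Anillin 4N libraries and 0.592 ± 0.079 RPKM in those of Anillin 2N, against 0.985 ± 0.084 in control 4N and 0.983 ± 0.038 in control 2N (SD, n = 3 each). Its log2 change was -0.45 ± 0.06 in the 4N gate and -0.44 ± 0.06 in the 2N gate (adjusted p = 0.000473), -0.73 and -0.72 on recovered reads. Its interaction term was -0.0038 ± 0.08 (adjusted p = 0.98). UBE2D1, another enzyme that starts APC/C chains, averaged 0.515 in Anillin 4N and 0.558 in Anillin 2N, against 0.690 in control 4N and 0.717 in control 2N. It fell by 0.23 ± 0.04 in the 4N gate (adjusted p = 0.00107) and by 0.20 ± 0.04 in the 2N gate (adjusted p = 0.00537), and the same changes were -0.43 and -0.35 on recovered reads. Its interaction term was -0.03 ± 0.06 (adjusted p = 0.804).

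Transcripts of APC/C inhibitors and substrates were lower after Anillin siRNA in both gates, with 1 exception. Among all genes tested, 31.5% were lower and 20.0% higher in the 4N gate. In the 2N gate 17.1% were lower and 11.4% higher. All 4 of the checkpoint and inhibitor genes fell in Anillin 4N against control 4N, with a median of -1.69 on the log2 scale, among them MAD2L1 (-2.01 ± 0.13, adjusted p = 1.43e-06) and BUB1B (-1.80 ± 0.07, adjusted p = 7.53e-08). All 4 also fell in the 2N gate, with a median of -0.55 that was -1.58 by recovered reads, though the FBXO43 call was lost when the fit held only the groups compared (adjusted p = 0.0514). Of 26 substrates tested among 27, 25 fell and 1 rose in each gate, with medians of -2.04 in the 4N gate and -0.85 (-1.36 on recovered reads) in the 2N gate. The mitotic kinase NEK2 (-2.81 ± 0.10, adjusted p = 4.36e-08), the mitotic entry factor CDCA3 (-2.63 ± 0.12, adjusted p = 1.82e-07) and the ribonucleotide reductase subunit RRM2 (-2.45 ± 0.16, adjusted p = 1.43e-06) had the largest falls in the 4N gate on the log2(RPKM + 0.5) scale. On recovered reads the order was NEK2 (-3.24), SGO1 (-2.94) and NUSAP1 (-2.85), with CDCA3 at -2.82 and RRM2 at -2.54. FBXO43, KIF18A and SGO1 have low RPKM, a value per base of gene span and not a count of reads. They changed by -0.95, -1.05 and -1.46 on the log2(RPKM + 0.5) scale in the 4N gate. Their changes on recovered reads were -2.55, -2.39 and -2.94. A gene of low RPKM that is highest in control 4N can meet the filter through that group alone. The falls of these genes from control 4N may therefore be partly set by the filter. The exception was SKP2, itself the substrate receptor of another ubiquitin ligase, which rose by 0.15 ± 0.04 in the 4N gate (adjusted p = 0.00581) and by 0.16 ± 0.04 in the 2N gate (adjusted p = 0.0106), or by 0.28 in each on recovered reads. The second call was lost when the fit held only the groups compared (adjusted p = 0.0689), as was that of KIF18A in the 2N gate (adjusted p = 0.11).

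Against control 2N, 2 of the 26 substrates rose in Anillin 4N by limma-trend, 4 fell and 20 did not pass. Neither share was above the 14.1% higher and 15.8% lower among all genes tested by limma-trend. On recovered reads, 2 of 27 substrates rose and 8 fell. Among all 22404 genes tested on recovered reads, 2825 were higher and 3322 lower. The share of substrates that fell was thus above that of all genes on recovered reads, though not by limma-trend. The mitotic kinase PLK1 rose by 0.75 ± 0.10 on the log2 scale (adjusted p = 0.000416), and the replication licensing factor CDC6 and RRM2 fell by 1.27 ± 0.14 (adjusted p = 0.000165) and 0.98 ± 0.16 (adjusted p = 0.00154). The other falls by limma-trend were those of TK1 and FOXM1. Both were lost without control 2N replicate 1 (adjusted p = 0.0683 and 0.0514) and without control 2N replicate 3 (0.0674 and 0.051). Both were also lost when the fit held only the groups compared (0.0636 and 0.0682), and TK1 also without Anillin 4N replicate 1 or 2. PLK1 averaged 2.99 RPKM in Anillin 4N and 1.59 in control 2N, and CDC6 averaged 0.449 RPKM in Anillin 4N and 1.83 in control 2N. Between the gates with Anillin siRNA 22 substrates rose, led by CDCA3 (1.57 ± 0.12, adjusted p = 0.000136) and PLK1 (1.45 ± 0.10, adjusted p = 7.6e-05) on this scale, and none fell. Among all genes tested, 2.61% were higher and 0.970% lower between these gates. On recovered reads NEK2 (2.36) and DLGAP5 (2.26) led, ahead of CDCA3 (2.21) and PLK1 (1.95). The calls of RRM2, KIF18A and SGO1 were lost without any 1 of the 6 Anillin libraries, and that of TK1 without any 1 but Anillin 2N replicate 1, with adjusted p up to 0.172 over all settings run. The cohesin genes RAD21, SMC1A and SMC3, whose products include the target of separase, all fell in both gates, by 1.22, 0.93 and 0.65 in the 4N gate and by 0.35, 0.40 and 0.29 in the 2N gate. Among all genes tested, 31.5% were lower in the 4N gate and 17.1% in the 2N gate.

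The SCF ligase, the partner of the APC/C in interphase, served as a contrast. Of 6 genes tested among 8, 4 fell, 1 rose and 1 did not pass in Anillin 4N against control 4N, with a median of -0.25. Among all genes tested, 31.5% were lower and 20.0% higher. The cofactor CKS1B fell by 2.33 ± 0.16 on the log2 scale (adjusted p = 1.91e-06), and SKP1 and CUL1 by 0.46 ± 0.05 (adjusted p = 3.09e-05) and 0.30 ± 0.03 (adjusted p = 2.47e-05). Among the 6, 3 fell and 2 rose at 2N, CDC34 by 0.38 ± 0.07 (adjusted p = 0.0029) and SKP2 as above, against 17.1% lower and 11.4% higher among all genes tested. On recovered reads all 8 were tested: 4 fell and 3 rose in the 4N gate, with a median of -0.061. In the 2N gate 3 fell and 3 rose on recovered reads, with a median of 0.034. No test set SCF genes against APC/C genes.

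Over the 12 libraries the genes most like each member on the log2(RPKM + 0.5) scale are given by Pearson's r as a description. The libraries share the gate and siRNA groups, so r is near 1 for any gene that follows the gates. CDC20 was closest to CDCA3 (r = 0.998), SAPCD2 (0.997) and KIF20A (0.996), UBE2C to TROAP (0.999), CCNA2 (0.998) and ENSG00000265303 (0.998), and PTTG1 to DLGAP5, CCNB1 and CCNB2 (each 0.998). UBE2S and ESPL1 were each closest to POC1A (0.999) and then to each other (0.998), followed by the copy UBE2SP1 for UBE2S and by CIT for ESPL1 (0.998 each). FBXO5 was closest to FANCI (0.997), CENPU (0.995) and PSIP1 (0.995), FZR1 to GNAI3 (0.994), CNTROB (0.993) and UBALD2 (0.993), and CDC27 to C4orf46 (0.997), MTMR6 (0.994) and STIL (0.994). The values were lower for CDC23, with TRIM6-TRIM34 (0.974), COMMD2 (0.948) and CEP164 (0.942), and for ANAPC11, with RBM8B (0.961), GSTO1 (0.955) and EXOSC6 (0.954).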

How the data were processed

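RNA from sorted RPE1 cells gave 12 libraries, 3 in each of 4 groups; the labels name both a stranded mRNA kit and ribo-depleted total RNA. The authors deposited 1 table of RPKM values per gene and library, per the file headers. Per the submitters' processing notes, the tools were CASAVA 1.8.2, TopHat2 and edgeR and the build was hg19, with no role stated. Not given in the sources used here were the annotation, the counting tool and strand use. Value columns not used numbered 0. Gene names, coordinates and exons come from GENCODE 29 (GRCh38, later than hg19), and promoters are RefSeq's on GRCh38.p14.

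For 29237 of the 38571 genes above 0, the deposited RPKM equals whole reads divided by the GENCODE 29 span, introns included, within 0.01 read. For the other 9334, UBE2S among them, reads came from a common divisor of a gene's own values, which does not check the span. A gene above 0 in 1 library meets such a divisor by construction. The authors' further scaling between libraries was 0.951 to 1.039. Levels between genes were rescaled to merged exon length, which counts every read as exonic. No value measures RNA per cell.

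Genes at 0.5 RPKM or more in at least 3 of 12 libraries (12892) were tested with limma-trend (limma 3.58.1, R 4.3.3) on log2(RPKM + 0.5), with 1 mean per group over all 12 libraries, two-sided, adjusted by Benjamini-Hochberg over all genes tested, threshold 0.05. Log2 changes on this scale understate genes of low RPKM. The test was checked on simulated data. Alternatives were pseudocounts of 0.1 and 1, no filter, quantile and median-of-ratios scaling, only the groups compared, limma-voom on recovered reads (22404 genes with 10 or more reads in 3 or more libraries) and each library left out. Tables and figures used Python 3.11.15, pandas 2.3.3, numpy 2.4.6 and matplotlib 3.10.9.

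The members and the gene lists were chosen with earlier results of these data known. All 10 members are named, with ANLN, up to 3 largest rises and 3 largest falls past the threshold per list and comparison, and the 3 genes most correlated with each member over the 12 libraries. SKP2 stands in the lists of substrates and of SCF genes.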

Additional observations from a re-analysis of the deposited data

Results flagged for a closer look

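The step from the 2N to the 4N gate differed between the siRNAs for 9 of the 10 genes by the interaction term of limma-trend (Benjamini-Hochberg adjusted p under 0.05 over all genes tested). The difference of the Anillin step from the control step, on the log2(RPKM + 0.5) scale, was -1.75 for UBE2C, -1.44 for UBE2S, -1.23 for ESPL1, -1.03 for FZR1, -0.90 for CDC20, -0.76 for PTTG1, -0.55 for CDC27, -0.50 for FBXO5 and -0.21 for CDC23. In all 9 the control step was upward, and with Anillin siRNA 5 of them rose past the threshold (CDC20, UBE2C, UBE2S, PTTG1 and ESPL1) and 4 did not pass. No test for outlying samples applied, since the groups hold 3 libraries each.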

How the results depend on the processing

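No paired analysis was possible because the labels give no replicate number that ties a library of 1 group to a library of another. In Anillin 4N against control 4N, all 10 genes kept their direction in every setting, but the CDC23 change was -0.084 with quantile and -0.088 with median-of-ratios scaling and the ANAPC11 change -0.13 with quantile scaling, each no longer passing, and ANAPC11 ranged from -0.27 to -0.19 with 1 library left out. In the 2N gate, genes that had not passed changed sign: FZR1 was -0.0044 on recovered reads and -0.050 to 0.042 with 1 library left out, and ANAPC11 was -0.10 to 0.0096; 2347 genes were called with only the groups compared and 6399 on recovered reads, against 3682. Between the gates with Anillin siRNA, UBE2S was 0.58 with no filter and 0.54 to 0.61 with 1 library left out, and ESPL1 was 0.29 with a pseudocount of 1, 0.46 with no filter and 0.41 to 0.49 with 1 library left out, calls lost there as given above. CDC23 was 0.0046 on recovered reads and -0.048 to 0.011 with 1 library left out, and CDC27 was -0.021 with quantile scaling, -0.013 with median-of-ratios scaling and -0.012 to 0.022 with 1 library left out. The count of the 10 genes called there was 3 with no filter and 3 to 4 with 1 library left out, against 5, and all genes called were 905 on recovered reads and 241 to 316 with 1 library left out, against 461. In Anillin 4N against control 2N, leaving out 1 library gave -0.13 to 0.22 for CDC20, -0.12 to 0.14 for UBE2S, -0.13 to 0.075 for PTTG1, -0.062 to 0.064 for ESPL1 and 0.24 to 0.56 for UBE2C, whose change passed at 0.41 with quantile scaling, 0.40 with median-of-ratios scaling and 0.43 on recovered reads. All genes called were 6147 there on recovered reads against 3854, and 8135 against 4782 for control 4N against control 2N. For the interaction, CDC20 was -0.90 with no filter, no longer passing (adjusted p = 0.0535), and -1.03 to -0.68 with 1 library left out, CDC23 was -0.24 to -0.18, and all genes called were 3258 on recovered reads and 1295 to 2027 with 1 library left out, against 2019. For control 4N against control 2N, all 10 calls held in every setting run. The cause of these shifts was not tested; recovered reads test 22404 genes in place of 12892. The share of higher genes among those called in Anillin 4N against control 4N was 38.9%, and 51.8% with quantile scaling; in control 4N against control 2N it was 64.4%, and 45.9% with quantile scaling, 52.4% with median-of-ratios scaling and 52.2% on recovered reads; between the gates with Anillin siRNA 72.9%, and 60.8% with quantile scaling; for the interaction 31.5%, and 43.7% on recovered reads. With all libraries kept, 396 of the log2 changes recomputed under other settings held direction and call, 4 changed sign, 3 newly passed and 7 no longer passed. Few reads limit ESPL1, UBE2C and FBXO5, whose thinnest libraries held 118, 120 and 134.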
